A study of Mus musculus with 24 samples.

Results

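The mitosis genes were 34 protein-coding genes of cell division. They were picked by symbol with no cut on a measured value, but earlier results of these data were known at the time. All 34 were among the 24091 genes of the deposited count table and among the 13520 genes with enough reads to be tested. They were grouped by role into CDK1 and its cyclins (4 genes), CDC25 phosphatases (2), Aurora and Polo kinases (3), the spindle checkpoint (5), the arm that works through the anaphase-promoting complex (2), centromere and kinetochore proteins (5), mitotic motors (3), spindle assembly factors (5), the midzone and cytokinesis (3) and chromosome proteins (2). Their transcripts were followed in LSKs, the Lin-Sca-1+c-Kit+ fraction of mouse bone marrow that holds stem cells and early progenitors. LSKs of 24 mice were sorted and sequenced as bulk RNA, 1 library per mouse, to ask what loss of the microRNA miR-142 changes in normal and in BCR-ABL-driven LSKs. There were 6 mice in each of 4 groups, 3 females and 3 males: wild-type mice (WT), Mir142 KO mice without BCR-ABL (miR-142 KO, or KO), BCR-ABL+ mice with intact miR-142 as a model of chronic phase (CP CML), and Mir142 KO BCR-ABL+ mice as a model of blast crisis (BC CML).

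All mice were on the C57BL/6 (B6) background. In the CML groups BCR-ABL was under tetracycline control through the SCL promoter (SCLtTA/BCR-ABL), so its expression was limited to cells in which that promoter is active, and LSKs were taken after tetracycline had been withdrawn for a couple of weeks. The KO allele was bred in from a miR-142-/- line, so in BC CML the loss of miR-142 came before BCR-ABL was induced and was not limited to LSKs. Ages are not given in the sources used here, and the methods of the study give fewer mice per group than the 6 analysed here.

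In a dividing cell, cyclin A and cyclin B switch on the kinase CDK1, which CDC25 phosphatases release from inhibition and which Aurora and Polo kinases assist in building the spindle. Kinetochores tie chromosomes to spindle fibers, the spindle checkpoint holds the cell until all are attached, and the anaphase-promoting complex then marks securin and cyclin B for destruction so that chromosomes part and the cell is cleaved. Transcripts of these genes build up in G2 and M phase under the MuvB complex with B-Myb and FoxM1, which reads a short promoter element named CHR (cell cycle genes homology region), so their level in a cell population is a familiar readout of the share of dividing cells. In bone marrow, long-term stem cells are mostly quiescent and progenitors divide often.

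The element is shown in the promoters because it is a feature that the list of symbols did not use. Promoter windows came from RefSeq (GRCm38.p6) and covered 250 bases before to 50 bases after each gene start. They were matched for 29 of the 34 genes (Ccna2, Cdc25c, Aurkb, Kif20a and Tpx2 had none). The CHR letters TTTGAA, or TTCAAA on the other strand, stood within 50 bases of the start in 18 of 29 promoters (62.1%), against 3.86% of 10447 promoters of tested genes and 5.72% of all 27025 genes in that table. Below are the 100 bases around the start, 5′ to 3′ on the strand of the gene, with the CHR letters in capitals, for the members whose transcripts differed most between groups (Anln, Aurka, Hmmr, Plk1), for one that went the other way (Kif23), for Cdk1, and for Ccnb1, which lacks the letters:
Anln, chr9:22389157-22389256, minus strand: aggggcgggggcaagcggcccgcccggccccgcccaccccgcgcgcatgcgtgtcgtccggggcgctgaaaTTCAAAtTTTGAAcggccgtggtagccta
Aurka, chr2:172370521-172370620, minus strand: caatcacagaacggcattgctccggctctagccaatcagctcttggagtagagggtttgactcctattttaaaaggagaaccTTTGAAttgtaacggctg
Hmmr, chr11:40733388-40733487, minus strand: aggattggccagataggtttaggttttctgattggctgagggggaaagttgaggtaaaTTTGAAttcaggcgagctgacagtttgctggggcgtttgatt
Plk1, chr7:122159385-122159484, plus strand: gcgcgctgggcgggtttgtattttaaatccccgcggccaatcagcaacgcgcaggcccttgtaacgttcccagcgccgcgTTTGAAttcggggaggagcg
Kif23, chr9:61946750-61946849, minus strand: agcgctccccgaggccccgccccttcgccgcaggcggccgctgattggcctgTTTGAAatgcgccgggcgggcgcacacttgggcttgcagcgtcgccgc
Cdk1, chr10:69352863-69352962, minus strand: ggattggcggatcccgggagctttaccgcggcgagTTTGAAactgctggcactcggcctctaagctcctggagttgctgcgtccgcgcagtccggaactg
Ccnb1, chr13:100786437-100786536, minus strand: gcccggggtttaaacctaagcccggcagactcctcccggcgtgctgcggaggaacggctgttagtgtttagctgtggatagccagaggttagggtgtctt

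Anln held the letters on both strands, 1 base apart, downstream of its start. The variant TTCGAA, which reads the same on both strands, was found anywhere in the window in 4 of the 29 (13.8%), against 2.57% of tested genes. CCAAT boxes (CCAAT or ATTGG), which often accompany CHR elements, were in 22 of 29 windows (75.9%) against 42.6%, and the E2F letters TTTCCCGC and TTTGGCGC, searched on both strands, were in 0 of 29 against 2.35% and 1.14%. These are matches of letters in 1 window per start, which say nothing of whether a factor was bound. For E2F no other spellings were searched, and with shares that low 0 of 29 does not set the members apart.

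The mature strands of miR-142 are shown, since their seeds (bases 2 to 8, in capitals) set which 3′UTR letters were searched:
mmu-miR-142a-3p, chr11:87756903-87756925, plus strand: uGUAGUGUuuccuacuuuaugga
mmu-miR-142a-5p, chr11:87756867-87756887, plus strand: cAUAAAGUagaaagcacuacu

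The letters that pair with the 3p seed, ACACTAC, were in the 3′UTR of 1 of 34 members, Cdc25c, against 6.93% of 12606 tested genes with a 3′UTR in the annotation. Those that pair with the 5p seed, ACTTTAT, were in 6 of 34 (17.6%), against 15.8%, namely Cdk1, Ccnb1, Mad2l1, Kif11, Ckap2 and Ect2. In Ect2 the letters lie on the minus strand of chromosome 3:
Ect2 3′UTR, chr3:27097771-27097793: tagtatgtACTTTATaattgttt
Anln, the member that rose most in both comparisons of miR-142 loss, held neither set of letters. The longest annotated 3′UTR of each gene was searched. In Cdk1, Ccnb1 and Mad2l1 the 5p letters lie beyond the gene ends given in the deposited count table. Members had 3′UTRs of 735.5 bases in the median, against 1166.5 bases for tested genes, so they had less room for either match.

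Total counts per library ran from 16267965 to 24687077, and the lowest count of any member in any library was 443 (Cdc25c in CP CML), so every member was well above the 3 counts that a count of 0 allows. The Mir142 gene itself, which checks the genotype labels, had 94 to 127 counts in WT, 68 to 153 in CP CML and 0 in all 12 libraries of the 2 knockout groups. Markers of the gate were present: Kit averaged 936 CPM (counts of a gene relative to the TMM-scaled total of its library) in WT, and Ly6a, which encodes Sca-1, averaged 41.7 CPM in WT and 51.9 in CP CML, against 92.3 and 110 in their miR-142-deficient counterparts. Ly6g, Cd3e and Pax5, which define neutrophils, T cells and B cells, were at 0 in 13, 9 and 7 of the 24 libraries. Of the same lists, Cd8a was at 0 in 7 libraries, Cd3d in 6, Ms4a1 in 5, and Retnlg and Cd3g in 4 each. The rest were at 0 in none. Among them were S100a8 (a mean of 41.6 CPM in KO), Nkg7 (106 CPM in KO and 62.5 in WT), Cd79b (28.8 CPM in WT) and Jchain (423 CPM in WT). Exons of 9 members overlap exons of an annotated gene on the opposite strand, and for 7 of them that gene is in the count table (Ccna2 with Exosc9, Cdc20 with Elovl1, Cdc25b with Spef1, Kif20a with Cdc23, Nusap1 with Oip5, Tacc3 with Tmem129, Ube2c with Tnnc2), and since the strand setting of the counting is not given, reads of these pairs may not have been told apart. Ccnb1 and Ccnb2 have annotated pseudogene copies that could share reads with them.

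A pair of WT libraries stood apart for the mitosis genes. In 34 of 34 members (100%), WT replicate 1 (a female) and WT replicate 4 (a male) were both below the other 4 WT libraries, an order shared by 13.5% of all tested genes. Their mean CPM was 72.3% of the mean of the other 4 in the median member, from 60.0% for Ube2c to 84.8% for Bub3. Aurka, for instance, had 45.5 and 39.9 CPM in these mice and 62.9 to 72.0 CPM in the others. This pair had the highest sum of 10 long-term stem cell genes (1084 and 1171 CPM against 739 to 918 CPM in the others). It had the lowest sum of 6 mast cell and basophil genes (89.8 and 79.6 CPM against 370 to 571 CPM). It was also lowest of WT for neutrophil-primed genes (1668 and 1293 CPM against 1827 to 4907 CPM). The same held for B and plasma cell genes (102 and 66.8 CPM against 373 to 978 CPM). Erythroid genes (257 and 206 CPM against 279 to 346 CPM) were lowest there too, and T and NK cell genes narrowly so. Megakaryocyte genes were highest in the pair (318 and 349 CPM against 236 to 298 CPM). Gate, lymphoid-primed, mature neutrophil and monocyte sums did not set both libraries apart. The labels give no batch or date; the mice are numbered 605 and 603, while the other WT mice are numbered 639 and 634 or named F3 and M3. Whether the makeup of these LSK sorts has a part in the low mitosis levels was not tested, and in bulk RNA fewer dividing cells and less transcript per cell cannot be told apart. Counts of calls in comparisons that use WT are therefore given with and without this pair. Since the pair was singled out for its low levels of these members, leaving it out raises their WT means by construction.

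**Figure D1:**
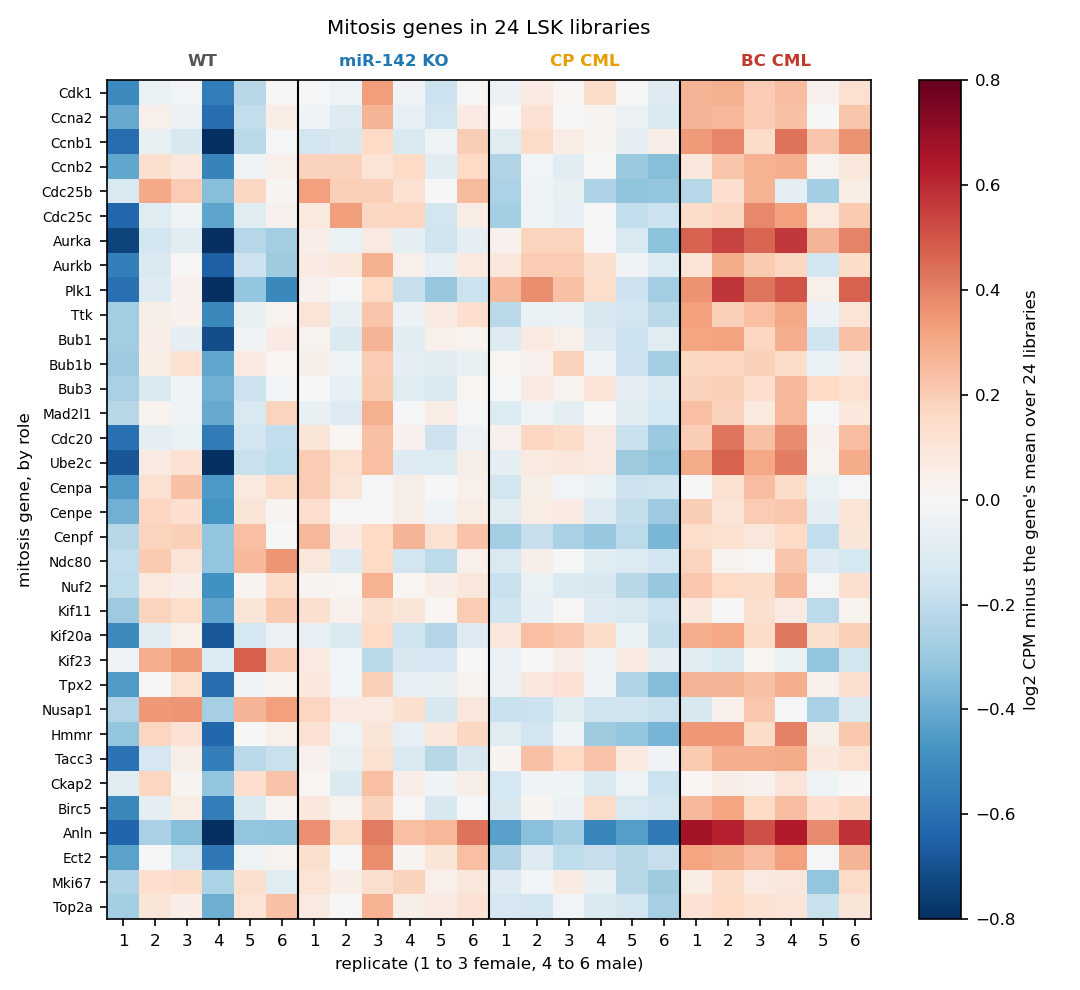
Level of each mitosis gene (rows, ordered by role) in each of the 24 libraries (columns, 6 per group), as log2 CPM minus the gene's mean over all libraries, with the color scale ending at 0.8 in either direction. WT replicates 1 and 4 are low in nearly every row, BC CML is high in most rows apart from replicate 5, and Anln is high in both groups without miR-142.

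Read per length of transcript, the members kept a similar order in all 4 groups. Top2a, the topoisomerase that untangles chromosomes, was highest, with 236 ± 38.2 CPM per kb in WT and 251 ± 20.1 in BC CML (SD, n = 6), followed by Mki67, the coat protein of mitotic chromosomes known as Ki-67, with 150 ± 19.6 and 157 ± 17.6 CPM per kb. Cdc25c was lowest in WT, with 13.3 ± 2.24 CPM per kb, just below Ccnb1 with 14.4 ± 3.28. In WT only 4 of the steps between neighbors in this order were larger than both SDs, those below Top2a, Mki67, Kif23 and Anln, so most neighbors did not differ beyond their spread. The place of Anln, which encodes the actin-binding ring protein anillin, changed most visibly: it was 31 of 34 in WT and 20 of 34 in BC CML, with 40.2 ± 2.85 CPM per kb there.

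BC CML vs CP CML asks what loss of miR-142 changes in the presence of BCR-ABL. Mitosis genes were modestly higher in BC CML: 18 of 34 rose at an adjusted p under 0.05 (edgeR quasi-likelihood test with Benjamini-Hochberg adjustment over all tested genes) and 0 fell, where 20.4% of all tested genes rose, 17.6% fell and 38% did either. By DESeq2 18 rose and 0 fell as well. Here and below, counts by DESeq2 or in other fits carry no share of all tested genes unless printed beside them. At an unadjusted p under 0.05 there were 21 members, all higher, against 6343 of 13520 tested genes in either direction. The fold change was positive for 33 of 34 members, with a median log2 of 0.21 against 0.01 for all tested genes, and it stayed under 1.5-fold for 33 of 34. In 8 of 34 members the groups did not overlap, all 8 with BC CML higher, against 20.7% of tested genes without overlap in either direction. Counted without regard to direction, the members were thus close to the background by that stricter view. No share for a single direction was computed. Of the 18 calls, 9 (Ccnb2, Cdc25c, Aurka, Ttk, Cenpf, Nuf2, Hmmr, Anln and Ect2) passed in all 34 alternative fits. The count fell to 10 with upper quartile scaling and to 9 with library totals alone, and to 9 or 10 when CP CML replicate 1, 5 or 6 or BC CML replicate 1, 2 or 4 was left out; it was 21 without the WT pair, where 19.1% of tested genes rose, and 18 without BC CML replicate 5.

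The largest rise was in cytokinesis genes, of which 3 of 3 passed. Anln had 98.6, 108 and 121 CPM in CP CML (lowest, median and highest mouse) and 190, 221 and 232 CPM in BC CML. The groups lay far apart, and the log2 fold change was 0.99 ± 0.08 (SE; adjusted p = 2.23e-09), close to a doubling. Ect2, the exchange factor that activates RhoA at the midzone, had 111, 115 and 122 CPM in CP CML and 130, 160 and 164 in BC CML. Again the groups did not overlap, although BC CML replicate 5 was far below its group (log2 fold change 0.43 ± 0.09; adjusted p = 0.000346). Birc5 (survivin), a subunit of the chromosomal passenger complex with Aurora B, rose by less, with a log2 fold change of 0.26 ± 0.09 (adjusted p = 0.0225), and its groups overlapped. Anln lies at chr9:22331214-22389206 and Ect2 at chr3:27097222-27153878, both on the minus strand of mm10.

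Among kinases, Aurka (chr2:172356190-172370570) rose and its relatives did not pass. Aurora A, the centrosomal spindle kinase, had 60.6, 77.1 and 86.0 CPM in CP CML and 91.8, 105 and 113 CPM in BC CML. No CP CML mouse reached a BC CML mouse (log2 fold change 0.46 ± 0.11; adjusted p = 0.00244). Plk1, the Polo kinase of mitotic entry, had 62.3, 85.8 and 97.5 CPM in CP CML and 77.5, 103 and 112 CPM in BC CML. These ranges overlapped widely, with a log2 fold change of 0.29 ± 0.14 (adjusted p = 0.0887), and Aurkb, the kinase of the passenger complex, had 0.05 ± 0.09 (adjusted p = 0.705).

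In the entry machinery, Ccnb1, Ccnb2 and Cdc25c rose, whereas Cdk1, Ccna2 and Cdc25b did not pass. Cyclin B2 went from 84.2, 95.3 and 107 CPM to 109, 119 and 130 CPM, without overlap (log2 fold change 0.33 ± 0.09; adjusted p = 0.00852). Ccnb1 went from 38.0, 41.7 and 45.0 CPM to 44.8, 51.7 and 54.7 CPM, and its ranges just met (0.29 ± 0.11; adjusted p = 0.0404). The phosphatase gene Cdc25c, one of the low members, went from 26.9, 29.8 and 32.5 CPM to 34.2, 36.9 and 42.2 CPM without overlap (0.34 ± 0.09; adjusted p = 0.00649). For Cdk1 itself the log2 fold change was 0.18 ± 0.09 (adjusted p = 0.119), for Ccna2 it was 0.20 ± 0.09 (adjusted p = 0.0792), and for Cdc25b 0.20 ± 0.10 (adjusted p = 0.122).

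Of 5 checkpoint genes 4 passed, with small sizes. Ttk, the kinase (Mps1) that starts the checkpoint signal, changed most (log2 fold change 0.33 ± 0.08; adjusted p = 0.00303), followed by Bub1 with 0.26, Mad2l1 with 0.21 and Bub3 with 0.18, while Bub1b (BubR1) had 0.15 and did not pass. Both genes of the anaphase-promoting arm passed: Ube2c, its ubiquitin-conjugating enzyme, had a log2 fold change of 0.37 ± 0.13 (adjusted p = 0.0266), and Cdc20, its activator, 0.26 ± 0.10 (adjusted p = 0.0419). The call for Ube2c was lost in 6 of the 34 alternatives, that for Cdc20 in 20, and those for Bub1 and Ccnb1 in 23 each.

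Of 5 centromere and kinetochore genes, Cenpf (0.34 ± 0.08; adjusted p = 0.00168) and Nuf2 (0.32 ± 0.08; adjusted p = 0.00243) rose. Nuf2, a subunit of the NDC80 complex that grips microtubules, had 72.1, 80.2 and 86.0 CPM in CP CML and 89.6, 99.1 and 107 CPM in BC CML, with no overlap. Its partner Ndc80 had a log2 fold change of 0.11 (adjusted p = 0.368), the histone variant gene Cenpa 0.16 (adjusted p = 0.198) and the kinetochore motor gene Cenpe 0.22 (adjusted p = 0.0675). Hmmr and Tpx2, which both act on microtubule nucleation at spindle poles, were the spindle assembly genes that rose. Hmmr (chr11:40701388-40733437) had 87.4, 97.5 and 110 CPM in CP CML and 117, 138 and 150 CPM in BC CML, so that no library overlapped (0.46 ± 0.10; adjusted p = 0.000895). Tpx2 had a log2 fold change of 0.28, and Nusap1, Tacc3 and Ckap2 had 0.10 to 0.12 without passing.

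No mitotic motor passed. Kif11, which slides spindle poles apart, had a log2 fold change of 0.12, Kif20a, which carries the passenger complex to the midzone, had 0.17, and Kif23, the motor of the centralspindlin complex and the partner of Ect2, had -0.11 (adjusted p = 0.268), the only negative value of the list. Of the chromosome proteins, Top2a was just past the threshold (0.21 ± 0.08; adjusted p = 0.048), a call lost in 26 of the 34 alternatives. Mki67, the common marker of proliferation, had 1258, 1446 and 1603 CPM in CP CML and 1229, 1621 and 1706 CPM in BC CML. The lowest BC CML mouse, replicate 5, was below every CP CML mouse, and Mki67 did not pass (0.14 ± 0.08; adjusted p = 0.176).

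**Figure D2:**
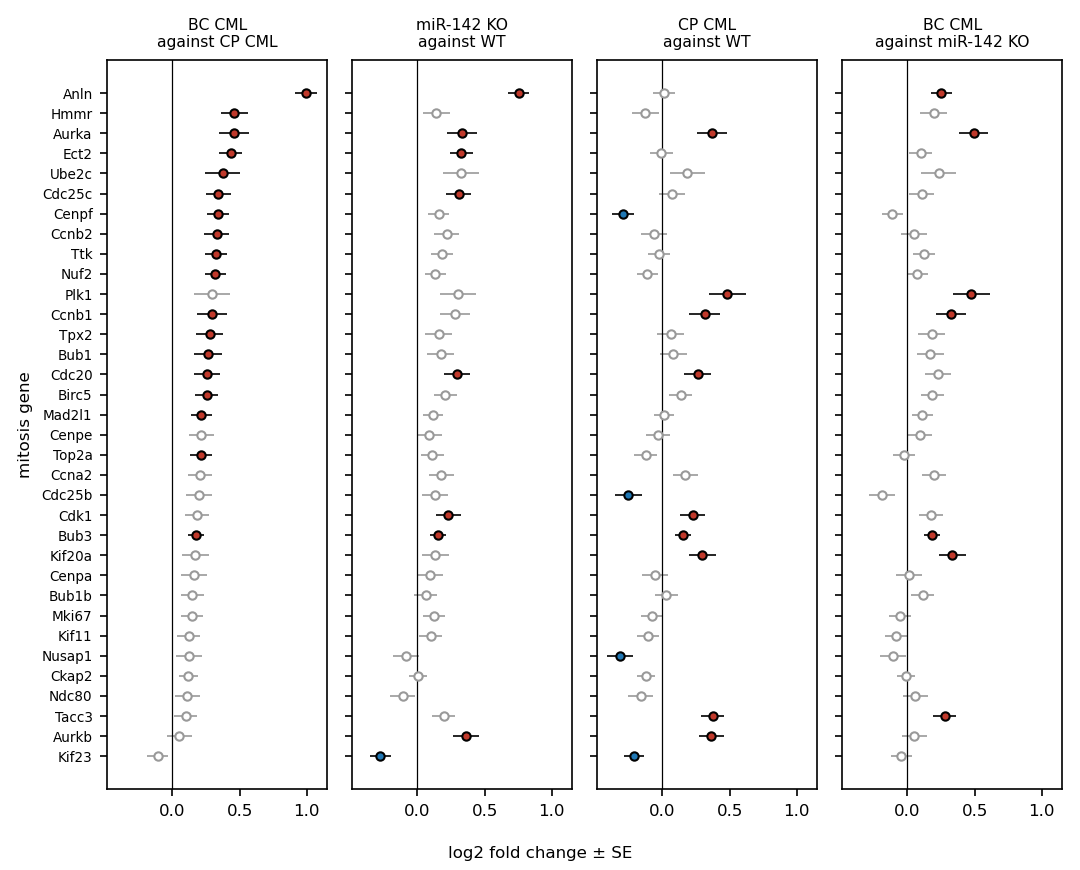
Log2 fold change (point) with its SE (bar) of each mitosis gene in the 4 comparisons, ordered by BC CML against CP CML; filled red points passed the test as higher, filled blue points as lower, and open gray points did not pass. In the first panel 33 of 34 points are right of 0 and Anln stands alone near 1, whereas in CP CML against WT the points fall on both sides.

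In normal LSKs, miR-142 KO vs WT, 8 of 34 members rose and 1 fell, against 19.9% and 16.4% of tested genes (36.3% in either direction), so the count was close to the background. By DESeq2 10 rose and 1 fell. The median log2 fold change was 0.16, against 0.01 for all tested genes. The calls were for Anln, Aurkb, Aurka, Ect2, Cdc25c, Cdc20, Cdk1 and Bub3 as higher and Kif23 as lower. Without WT replicates 1 and 4, 2 members rose (Anln and Ect2) and 3 fell (Kif23, Nusap1 and Ndc80), where 14.3% of tested genes rose and 12.3% fell, and the median was 0.02. The upward shift of the list in this comparison was thus not seen without that pair of WT mice, apart from Anln and Ect2. The count of rises was also 4 without either one of them, 13 without WT replicate 2 and 15 without WT replicate 3.

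Anln was the one member whose miR-142 KO and WT libraries did not overlap, against 14.5% of tested genes without overlap in either direction. It had 82.5, 116 and 122 CPM in WT and 162, 182 and 198 CPM in miR-142 KO. Every KO mouse was above every WT mouse by a wide gap (log2 fold change 0.75 ± 0.08; adjusted p = 1.84e-07), and without the WT pair the value was 0.62 ± 0.06 (adjusted p = 4.33e-07). Ect2 had 88.3, 123 and 134 CPM in WT and 131, 142 and 169 CPM in KO, with little overlap, and its log2 fold change went from 0.33 to 0.18 without the pair (adjusted p = 0.00443 and 0.0469). Kif23 (chr9:61917278-61946799) moved the other way, with 160, 204 and 239 CPM in WT and 148, 163 and 181 CPM in KO (log2 fold change -0.28 ± 0.08; adjusted p = 0.00701). WT replicates 1 and 4 lay within the KO range for Kif23, and without them the value was -0.40 ± 0.06 (adjusted p = 5.7e-05). Aurka had 39.9, 64.0 and 72.0 CPM in WT and 68.3, 72.9 and 79.9 CPM in KO, and its call was lost without the pair (0.33 ± 0.11, adjusted p = 0.0233, against 0.14 ± 0.08, adjusted p = 0.221).

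**Figure D3:**
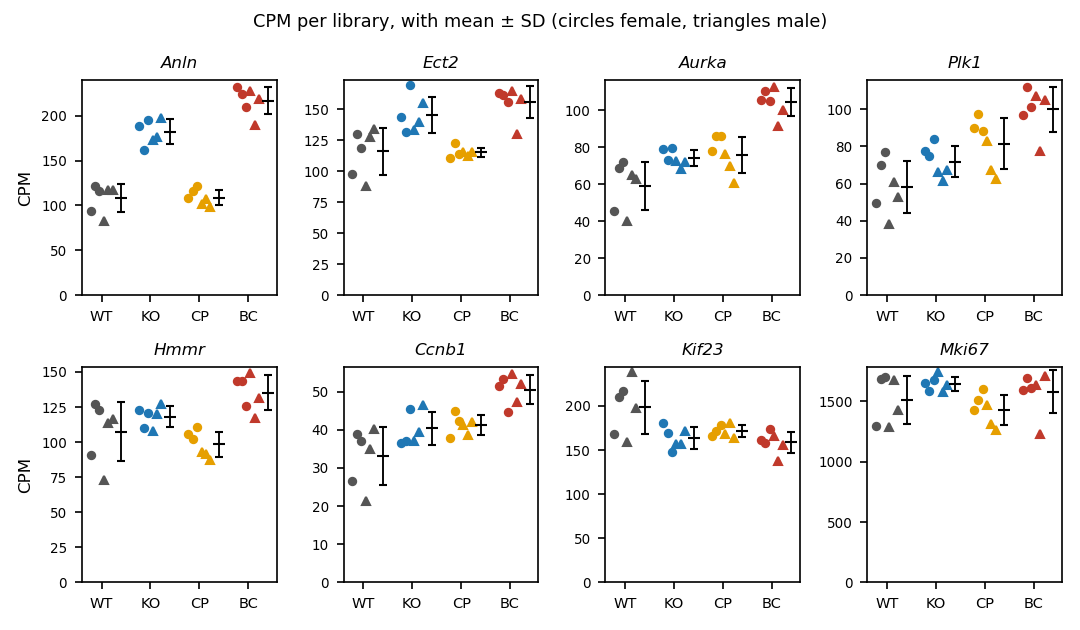
CPM of 8 mitosis genes in each library, by group (KO stands for miR-142 KO, CP and BC for the CML groups), with the mean and SD beside the points and axes that start at 0. Anln is near 110 CPM with miR-142 and near 180 to 220 CPM without it, Aurka and Plk1 are highest in BC CML, and Kif23 is highest in WT.

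CP CML vs WT asks what BCR-ABL changes while miR-142 is present. Here members went both ways: 9 of 34 rose, against 22.5% of tested genes, and 4 fell, against 22.9% (45.4% in either direction), with 0 members whose groups did not overlap, against 21.8%. DESeq2 gave 9 and 4 as well. The median log2 fold change was 0.01, against -0.02 for all tested genes. Of the Aurora and Polo kinases 3 of 3 passed: Plk1 had 38.5, 56.9 and 77.2 CPM in WT and 62.3, 85.8 and 97.5 CPM in CP CML (log2 fold change 0.48 ± 0.14; adjusted p = 0.00606), and Aurka and Aurkb had 0.37 and 0.36. Tacc3, a microtubule-binding partner of Aurora A, rose by 0.37 ± 0.09 (adjusted p = 0.00132), and Kif20a, Ccnb1, Cdc20, Cdk1 and Bub3 rose by 0.16 to 0.31. Nusap1, a spindle-bundling protein, fell most, from 128, 190 and 197 CPM to 136, 137 and 144 CPM (-0.31 ± 0.10; adjusted p = 0.0106). Cenpf (-0.29 ± 0.08; adjusted p = 0.00442), Cdc25b (-0.25) and Kif23 (-0.21) fell as well.

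Leaving out the pair of WT libraries changed this comparison as much as the other one. Then 2 members rose (Aurkb and Tacc3), where 19% of tested genes rose, and 13 fell, where 16.1% fell, and the median log2 fold change was -0.10. The 13 were Nusap1, Cenpf, Cdc25b, Kif23, Ndc80, Hmmr, Top2a, Kif11, Nuf2, Cenpa, Ckap2, Ccnb2 and Cenpe. Of the Aurora and Polo kinases only Aurkb then passed, with Plk1 at 0.33 (adjusted p = 0.0508) and Aurka at 0.19 (adjusted p = 0.072). Leaving out WT replicate 1 alone gave 4 rises, and leaving out WT replicate 4 alone gave 9 falls, while 2 falls were left without WT replicate 2, 3 or 5 or CP CML replicate 1, 4 or 6. Aurkb, Tacc3, Cenpf and Nusap1 were the calls that passed in all 34 alternatives.

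BC CML vs miR-142 KO, which asks what BCR-ABL changes without miR-142, did not involve WT mice: 7 of 34 members rose and 0 fell, against 20.3% and 19.3% of tested genes (39.6% in either direction). DESeq2 gave 7 and 0. The median log2 fold change was 0.11 against -0.02. The 7 were Aurka, Plk1, Kif20a, Ccnb1, Tacc3, Anln and Bub3, from 0.49 ± 0.11 for Aurka (adjusted p = 0.00153) to 0.18 ± 0.06 for Bub3 (adjusted p = 0.0201). Aurka, with 68.3, 72.9 and 79.9 CPM in KO and 91.8, 105 and 113 CPM in BC CML, was the 1 member whose groups did not overlap, against 10.6% of tested genes. Plk1 had 61.2, 71.0 and 84.2 CPM in KO and 77.5, 103 and 112 CPM in BC CML, with only BC CML replicate 5 inside the KO range (0.48 ± 0.14; adjusted p = 0.00809). The WT libraries still entered the fit. Without WT replicates 1 and 4 the median log2 fold change was again 0.11, but 14 members rose, where 20.8% of tested genes rose. With only the 12 libraries compared 12 rose, a count not set against all tested genes in that fit. Comparisons that share a group (BC CML, CP CML, KO or WT) share its mice, so their values for one gene are not independent of each other.

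Side by side, Aurka had log2 fold changes of 0.46 in BC CML vs CP CML, 0.33 in KO vs WT, 0.37 in CP CML vs WT and 0.49 in BC CML vs KO, and passed in all 4. Bub3, a checkpoint adaptor, also passed in all 4, at 0.18, 0.15, 0.16 and 0.18. Without the WT pair both lost their calls in the comparisons with WT, where Bub3 was at 0.07 in KO (adjusted p = 0.381) and 0.09 in CP CML (adjusted p = 0.23), so that 0 members passed in all 4. Anln had 0.99, 0.75, 0.01 and 0.25. Kif20a had 0.17, 0.13, 0.30 and 0.33, and Tacc3 0.10, 0.19, 0.37 and 0.28, passing in both comparisons for BCR-ABL and in neither for miR-142, as did Plk1. Without the pair this held for Tacc3 of the 3, since Kif20a (0.15, adjusted p = 0.163) and Plk1 no longer passed in CP CML vs WT. Of the 34, 10 passed in BC CML vs CP CML alone, and 8 (Ccna2, Bub1b, Cenpa, Cenpe, Ndc80, Kif11, Ckap2 and Mki67) in none of the 4. These counts were 4 and 2 without the pair, the 2 being Bub1b and Mki67, with Cenpa, Cenpe, Ndc80, Kif11 and Ckap2 then lower in CP CML than in WT.

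The difference between the effects of miR-142 loss with and without BCR-ABL was tested as a contrast of the 4 group means. It passed for 0 of 34 members in edgeR and for 0 in DESeq2, against 3.99% of tested genes, with 3 members at an unadjusted p under 0.05: Aurkb at -0.31 ± 0.13 (adjusted p = 0.189), Hmmr at 0.32 ± 0.14 (adjusted p = 0.207) and Anln at 0.24 ± 0.11 (adjusted p = 0.242). Of the 13520 tested genes, 2611 were at an unadjusted p under 0.05. The contrast was positive for 29 of 34 members. So the larger count in CML than in normal LSKs was not shown to be a difference between them. Without the WT pair it passed for 4 members, all positive, where 1.3% of tested genes passed as positive: Hmmr (0.47 ± 0.10; adjusted p = 0.0101), Nusap1 (0.37 ± 0.09; adjusted p = 0.0271), Anln (0.36 ± 0.08; adjusted p = 0.0246) and Nuf2 (0.30 ± 0.08; adjusted p = 0.0301). The pair was set aside for its low levels of these same members, so leaving it out raises this contrast by construction. These 4 calls are thus no separate support for a difference.

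Averaged over the 34 members, log2 CPM was 6.91 ± 0.25 in WT and 7.10 ± 0.08 in KO, and 6.97 ± 0.10 in CP CML against 7.22 ± 0.10 in BC CML (SD, n = 6). Single libraries spanned 6.52 to 7.10 in WT and reached 7.23 in KO, while BC CML spanned 7.03 to 7.31 and CP CML 6.83 to 7.08. All groups overlapped with their neighbors in this order, and BC CML replicate 5, a male, reached down into the CP CML range. It was the lowest of its group for 31 of 34 members, where it was lowest for 19.2% of tested genes. WT replicate 4 was lowest for 31 (19.8% of tested genes), CP CML replicate 6 for 27 (23.0%) and KO replicate 5 for 20 (16.3%). KO replicate 3 was the highest of its group for 21 members. Of tested genes it was highest for 30.8% and lowest for 29.0%, so it stood off in many genes outside the list.

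**Figure D4:**
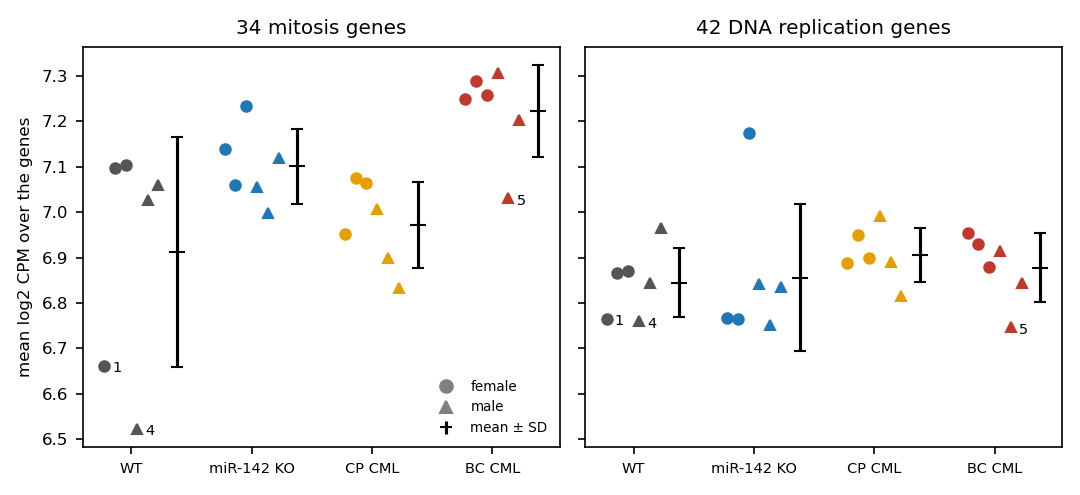
Mean log2 CPM of the 34 mitosis genes (left) and of 42 DNA replication genes (right) in each library, by group, with the mean and SD of the 6 mice beside the points. WT replicates 1 and 4 lie at 6.66 and 6.52 for the mitosis genes, below all other libraries, and the group means of the replication genes lie between 6.84 and 6.91.

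Mitosis genes moved together from mouse to mouse. After the mean of each group was taken off, the correlation of log2 CPM over the 24 libraries between pairs of members had a median r of 0.79 (561 pairs, from 0.30 to 0.98, all positive), where pairs of all tested genes had a median r of -0.003. The closest pair was Aurka and Tpx2, its activator, at 0.98. Cdc25c, Kif23 and Cdc25b followed the others least, with median r of 0.64, 0.65 and 0.67. The points share libraries and their scaling, and the WT pair weighs heavily: without it the median was 0.55 and the lowest r -0.32. Within WT the SD of log2 CPM was 0.26 in the median member, against 0.11 for the 6561 tested genes at least as highly expressed as the lowest member; in the other groups members had 0.10 to 0.11 and those genes 0.09 to 0.12.

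Males had lower levels of mitosis genes than females in the average of every group, although no member passed the test. With the group as a covariate, the log2 fold change of males against females was negative for 34 of 34 members, with a median of -0.08 against -0.01 for all tested genes. It passed for 0 members, against 0.651% of tested genes. At an unadjusted p under 0.05 there were 8 members, against 2343 of 13520 tested genes in either direction. Plk1 was furthest, at -0.28 ± 0.08 (adjusted p = 0.0865). Mean levels were 6.95 in females and 6.87 in males of WT, 7.14 and 7.06 in KO, 7.03 and 6.91 in CP CML, and 7.27 and 7.18 in BC CML, and the ranges of the sexes overlapped in every group. Since members move together, the 34 signs are not 34 separate observations.

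The wider set of mitosis genes was less uniform. Of 113 further genes in 5 lists (kinetochore and centromere, spindle and cytokinesis, anaphase-promoting complex, condensin and cohesin, entry kinases and phosphatases), 28 rose and 3 fell in BC CML vs CP CML, 18 rose and 5 fell in KO vs WT, 8 rose and 20 fell in CP CML vs WT, and 10 rose and 13 fell in BC CML vs KO. Of all tested genes 20.4% rose in the first of these comparisons, 19.9% in the second, 22.5% in the third and 20.3% in the last. By rises alone, the further genes were near the background in both comparisons of miR-142 loss and under it in both comparisons for BCR-ABL. Falls among all tested genes were 17.6%, 16.4%, 22.9% and 19.3% in the same order. The further genes fell less often than that in each, by far in the comparisons of miR-142 loss. There, 88 and 87 of the 113 had a positive fold change, against 48 and 51 in the comparisons for BCR-ABL. Without the WT pair 34 rose and 4 fell in BC CML vs CP CML, 7 rose and 5 fell in KO vs WT, 3 rose and 35 fell in CP CML vs WT, and 10 rose and 15 fell in BC CML vs KO. Of all tested genes 19.1%, 14.3%, 19% and 20.8% then rose in the same order. Falls were 12.3% in KO vs WT and 16.1% in CP CML vs WT. Fam83d, a spindle protein that brings casein kinase to the spindle, came closest to Anln: 13.4 ± 0.92 CPM in CP CML and 25.2 ± 3.57 in BC CML (log2 fold change 0.90; adjusted p = 5.47e-06), and 14.1 ± 3.40 in WT and 25.4 ± 2.05 in KO (0.84; adjusted p = 1.24e-05; without the WT pair 0.64). Ckap2l (0.45) and Prc1, the midzone bundler (0.36), also rose in BC CML vs CP CML. Numa1, which anchors spindle poles, fell in both comparisons of miR-142 loss (-0.23 and -0.24, the latter -0.19 without the WT pair). It also fell in CP CML vs WT (-0.29, and -0.23 without the WT pair) and in BC CML vs KO (-0.28).

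In BC CML vs CP CML 20.4% of all tested genes rose and 17.6% fell, the shares to set beside each list here. In the kinetochore list 8 of 39 rose, a share like that of all tested genes, but only 1 fell and 32 were positive. The rises with the smallest p were Mad1l1 (0.27; adjusted p = 0.00412), Gsg2 (haspin, 0.29) and Cenpi (0.22), and Zwint fell (-0.25; adjusted p = 0.000924). Of the anaphase-promoting complex, 6 of 19 rose and 0 fell, with Cdc16 at 0.28 (adjusted p = 3.16e-05), Cdc27 at 0.26 and Anapc13 at 0.25. Of condensin and cohesin genes 1 of 18 rose and 0 fell, Smc4 at 0.33 (adjusted p = 0.00181). Among 15 entry kinases and phosphatases 4 rose and 1 fell: Pbk (0.33), Mastl (0.27) and Arpp19 (0.20) rose, and Pkmyt1, the kinase that inhibits CDK1, fell (-0.23; adjusted p = 0.00539).

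Regulators of these genes did not follow one direction. Of 20 genes of the FoxM1, B-Myb, MuvB and E2F list, 2 rose and 3 fell in BC CML vs CP CML. Foxm1, the forkhead factor of G2 genes, had 91.6 ± 6.29 CPM in CP CML and 110 ± 14.1 in BC CML (log2 fold change 0.26; adjusted p = 0.0253), and it was also higher in KO (119 ± 8.45) than in WT (99.6 ± 15.1; 0.26, adjusted p = 0.0272), a call lost without the WT pair (0.14, adjusted p = 0.261). Mybl2 (B-Myb) was level between BC CML and CP CML (-0.02; adjusted p = 0.904) and higher in CP CML than in WT (0.60; adjusted p = 6.76e-05; without the WT pair 0.55). It was also higher in KO than in WT (0.43; adjusted p = 0.00171; without the WT pair 0.37). Lin9 and Lin54, MuvB subunits, had -0.05 and 0.16 in BC CML vs CP CML and did not pass. Rb1 rose (0.34), and E2f6, Rbl2 and Tfdp2 fell (-0.26, -0.24 and -0.30).

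DNA replication genes, which act in S phase, did not rise with the mitosis genes in BC CML. Of 42 replication genes 1 rose (Ccne2, 0.41; adjusted p = 0.00972) and 4 fell in BC CML vs CP CML, with a median log2 fold change of -0.03, and 1 rose and 3 fell in KO vs WT (0 and 3 without the WT pair). Of all tested genes 20.4% rose and 17.6% fell in BC CML vs CP CML, and 19.9% and 16.4% in KO vs WT. Chaf1b, Pole and Cdt1 were the lowest by p (-0.25, -0.24 and -0.21). Their mean log2 CPM was 6.84 ± 0.08 in WT and 6.86 ± 0.16 in KO, and 6.91 ± 0.06 in CP CML against 6.88 ± 0.08 in BC CML. WT replicates 1 and 4 were at 6.77 and 6.76, also the lowest of WT but by far less than for mitosis genes. Among CDK inhibitors and D-type cyclins, Cdkn2a was near 0 in WT and KO and had 1.30 ± 1.33 CPM in CP CML and 3.35 ± 0.69 in BC CML (adjusted p = 0.00456), and Ccnd2 was lower without miR-142 in both comparisons (-0.53 and -0.53, the latter -0.46 without the WT pair), while Cdk4 was higher in BC CML (0.21).

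Markers of other cell types moved between the same groups. The 6 mast cell and basophil genes summed to 79.6 to 571 CPM in WT and 225 to 2622 in KO, and to 1185 to 2250 in CP CML against 3402 to 7318 in BC CML, and 4 of 6 rose in BC CML vs CP CML, with none of the 6 at 0 in any library. The most abundant in both CML groups was Cpa3, a mast cell protease, which averaged 4101 CPM in BC CML against 1131 CPM in CP CML. The 7 neutrophil-primed genes summed to 1293 to 4907, 2833 to 7630, 4548 to 7725 and 5916 to 8690 CPM in the same order of groups, and 4 of 7 rose. The 10 long-term stem cell genes summed to 739 to 1171 CPM in WT and 558 to 897 in KO, and to 644 to 876 in CP CML against 508 to 635 in BC CML, where 5 of 10 fell and 1 rose. Lymphoid-primed genes (5 in the table) summed to 1851 to 2907, 397 to 972, 860 to 1376 and 487 to 785 CPM, and 8 B cell and plasma cell genes to 66.8 to 978, 27.1 to 38.8, 173 to 794 and 27.9 to 39.6 CPM. Mature neutrophil, T and NK cell, erythroid, megakaryocyte and monocyte lists are summed in the same way: mature neutrophil genes were at 7.13 to 182 CPM and T and NK genes at 56.9 to 130 CPM over all libraries. Erythroid genes were at 206 to 410 CPM, megakaryocyte genes at 209 to 539 CPM and monocyte and macrophage genes at 150 to 1218 CPM. These sums hide changes of single genes. Of 6 erythroid genes 5 fell and 0 rose in CP CML vs WT, and likewise in BC CML vs KO. Tfrc made up most of their sum (199 CPM in WT, 306 in BC CML). Of 6 megakaryocyte genes 5 rose and 1 fell in KO vs WT (1 and 0 without the WT pair). In BC CML vs KO 5 of them fell and 0 rose. Of 7 mature neutrophil genes 6 fell and 1 rose in BC CML vs KO. The part of these lists in the levels of the mitosis genes was not tested.

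**Figure D5:**
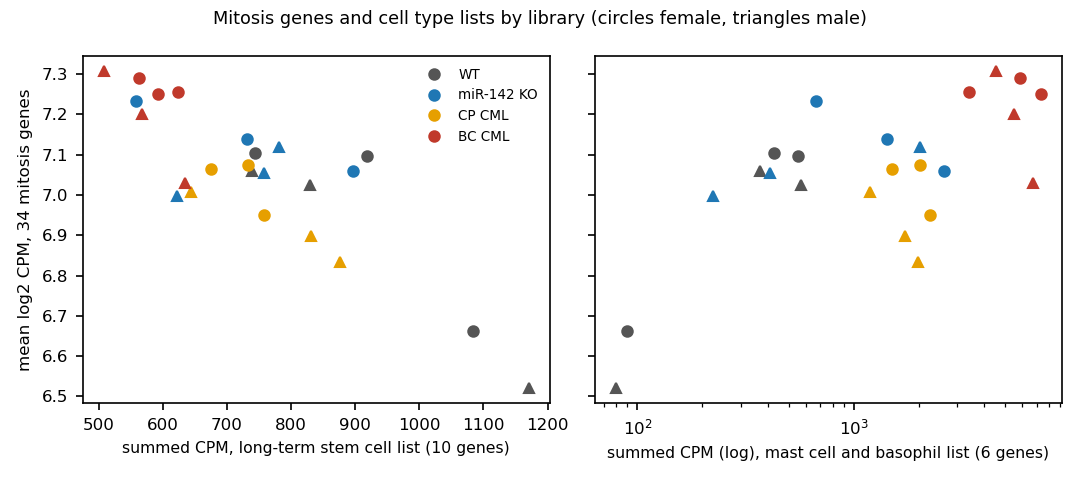
Mean log2 CPM of the 34 mitosis genes against the summed CPM of 10 long-term stem cell genes (left) and of 6 mast cell and basophil genes (right, log axis), 1 point per library. WT replicates 1 and 4 sit at the right end of the first panel, at 1084 and 1171 CPM, and the BC CML libraries at its left end, between 508 and 635 CPM.

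Within the 29 genes with a promoter match, genes that rose were found both with and without the CHR letters near the start. Of 18 with the letters 11 rose in BC CML vs CP CML, with a median log2 fold change of 0.28 and a range from -0.11 (Kif23) to 0.99 (Anln), and of 11 without them 5 rose, with a median of 0.21. In KO vs WT, where 19.9% of tested genes rose, 6 of the 18 rose and 1 fell, and 0 of the 11 passed. Without the WT pair 2 of the 18 rose and 2 fell, and 1 of the 11 (Nusap1) fell. These counts are a description and were not tested.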

How the data were processed

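Total RNA of sorted LSKs was made into libraries with the Kapa mRNA HyperPrep kit and sequenced in pairs on a NovaSeq. As deposited, the values are read counts per gene without normalization: the authors trimmed reads with Trimmomatic and FASTP, mapped them to mm10 with STAR 2.6.0 and counted them with HTSeq-count 0.11.1, and the annotation and strand setting are not given in the sources used here. The deposited table also holds a gene length in kilobases, used for levels per kb. All 24 columns matched 1 mouse each by its number, and no 2 libraries of a group agreed within sampling noise.

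Counts were tested in edgeR 4.0.16 (R 4.3.3) with TMM scaling, filterByExpr, all 24 libraries in 1 fit, the quasi-likelihood test and Benjamini-Hochberg adjustment at 0.05; the study used the likelihood ratio test, run here as an alternative with DESeq2 1.42.0. Levels are CPM on TMM-scaled library sizes, and mean log2 CPM uses a prior count of 2. Fold changes are fitted by edgeR. p-values measure the spread between separate mice. Intervals from depth cover counting error only. Promoters and miRNAs came from RefSeq, 3′UTRs from GENCODE vM21. Members and lists were chosen with earlier results of these data known. All 34 members are named; of each other list, at most 3 rising and 3 falling genes were named by smallest p in BC CML vs CP CML, plus Foxm1, Mybl2, Lin9 and Lin54. The edgeR step was tested on simulated data.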

Additional observations from a re-analysis of the deposited data

Results flagged for a closer look

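In each group of 6 mice, every member was examined for a library that stood off from the other 5 by more than Dixon's 95% limit (a gap of 0.625 of the range), a rule that flags about 1 in 20 groups by chance. Of 136 groups 13 met it, and since members move together within a mouse these are not 13 separate events.

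BC CML replicate 5 was the low library in 6 of them: Ccna2 at 257 CPM against 297 to 312 in the other 5 mice, Bub1 at 117 against 146 to 162, Cenpf at 206 against 252 to 264, Ect2 at 130 against 156 to 164, Mki67 at 1229 against 1596 to 1706, and Top2a at 1166 against 1411 to 1471 CPM. Its 7 neutrophil-primed and 6 mast cell genes, at 6702 and 6707 CPM, were within the range of its group. Its long-term stem cell, megakaryocyte, mature neutrophil and B cell sums were the highest of its group (635, 360, 48.0 and 39.6 CPM). Its replication genes were the lowest of its group (mean log2 CPM 6.75).

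miR-142 KO replicate 3 was the high library for Cdk1 (186 CPM against 131 to 148), Bub1 (157 against 120 to 134), Bub3 (171 against 137 to 150) and Nuf2 (108 against 90.2 to 94.8). Its replication genes were also the highest of its group (mean log2 CPM 7.18), and its neutrophil-primed and long-term stem cell sums the lowest (2833 and 558 CPM). miR-142 KO replicate 5 was low for Ccnb2 (100.3 CPM against 115 to 121) and Nusap1 (141 against 162 to 174). CP CML replicate 3 was high for Nusap1 (144 against 136 to 138), in a group with a narrow range. WT replicates 1 and 4 are not among these, because 2 low libraries hide each other in a rule that looks for 1.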

How the results depend on the processing

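Settings that could change the calls were varied one at a time, and leaving out WT replicates 1 and 4 together was chosen after seeing the data. Counts of members that rose or fell stayed within 1.5 times of the reported ones except as follows. BC CML vs CP CML gave 10 rises with upper quartile scaling and 9 with library totals alone, against 18. miR-142 KO vs WT gave 4 rises with library totals, 3 with only the 12 libraries compared, and 2 rises with 3 falls without the WT pair, against 8 and 1. CP CML vs WT gave 4 rises and 2 falls with only the 12 libraries, and 2 and 13 without the WT pair, against 9 and 4. BC CML vs miR-142 KO gave 12 rises with only the 12 libraries, 14 without the WT pair, and 1 fall with library totals. The difference of effects gave 4 without the WT pair, and males against females 1 fall by the likelihood ratio test and 1 without the WT pair. When a change of 2-fold or more was also required, 0 members were called in any comparison, since all members lie under it. The median correlation between members was 0.55 without the WT pair. The causes of the other changes were not tested, and these counts were not set against the share of all tested genes in each fit.

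Leaving out 1 mouse at a time gave 9 to 19 rises in BC CML vs CP CML, 4 to 15 rises in KO vs WT, 4 to 9 rises and 2 to 9 falls in CP CML vs WT, 5 to 10 rises and 0 to 1 falls in BC CML vs KO, 0 to 1 rises for the difference of effects and 0 to 1 falls for males. Under all 34 alternatives 32 or 33 of 34 members had a positive fold change in BC CML vs CP CML, 20 to 31 in KO vs WT, 23 to 27 in BC CML vs KO and 10 to 22 in CP CML vs WT, and no call changed sign. Library totals and upper quartile scaling moved the median of all genes by under 0.1 on the log2 scale, but they moved the share of calls that were rises from 53.7% to 37.9% and 42.4% in BC CML vs CP CML, from 54.7% to 37.5% and 42.02% in KO vs WT, from 49.6% to 38.7% and 41.6% in CP CML vs WT, and from 51.3% to 39.6% and 43.2% in BC CML vs KO. No paired analysis was possible because the labels give mouse numbers and no replicate number shared between groups. Depth was not a limit for these genes. The small fold changes, in bulk RNA of a mixed fraction, and a WT group that rests on 4 or 6 mice are.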
